A study of Mus musculus with 17 samples.

Results

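Leptin, insulin and insulin-like growth factors (IGFs) reach the kidney with the blood and act there through cell-surface receptors, and the expression of 10 genes of these pathways was measured in whole mouse kidneys. The 10 genes were taken by symbol from a fixed list, and each was 1 of the 22561 genes in the deposited table: the ligand Igf1, the receptors Lepr, Insr and Igf1r, the regulator of the leptin receptor Leprot, the receptor substrates Irs1 and Irs2, the binding proteins Igfbp1 and Igfbp3, and the transcription factor Foxo1. All 10 passed the filter on low counts in every comparison. Kidneys came from 17 male mice that entered the experiment at 8 weeks of age and were treated for 6 weeks. The Ctrl group held 5 C57BL/6 mice given saline. The Case group held 6 db/db mice of the strain BKS.Cg-Dock7m +/+ Leprdb/J given the same volume of saline. The Dapa group held 6 db/db mice of that strain given dapagliflozin, an inhibitor of the sodium-glucose cotransporter SGLT2, at 1 mg/kg/day by mouth. The db/db mice differ from the Ctrl mice in the Lepr genotype, in strain background and in diabetes, and these cannot be told apart. In whole-kidney RNA, fewer cells of a type and less RNA per cell cannot be told apart either.

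Leptin is an adipocyte hormone that binds the receptor encoded by Lepr and signals through JAK2 and STAT3. The db mutation alters splicing of Lepr so that the long, signalling form of the receptor is not made, and db/db mice become obese, insulin resistant and diabetic. Insulin and IGF-1 bind the receptor tyrosine kinases INSR and IGF1R, which phosphorylate the substrates IRS1 and IRS2, activate PI3K, AKT and mTOR, and drive FOXO1 out of the nucleus. FOXO1 switches on genes such as Igfbp1 and Irs2 when insulin action is low, and in the kidney these pathways are known for their part in tubular glucose production, sodium handling and growth.

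The libraries held 13039535 to 17779635 counts, and the share of counts on mitochondrial genes was 17.9% to 20.4% in Ctrl, 19.8% to 27.3% in Case and 19.7% to 27.6% in Dapa. Its part in the comparisons with Ctrl was not tested. In 7 libraries (Ctrl 1, 3 and 4, Case 1, and Dapa 10, 11 and 12) the FPKM values and the counts of 3 table entries that ran over 2 lines did not match by more than 1%, and these libraries were treated as a possible batch. FPKM is the fragment count scaled to transcript length and to the library total, so the order of levels between genes also rests on the lengths used. By FPKM against counts these were 13145 bases for Igf1, 7697 for Lepr and 4489 for Igf1r. The summed level of 6 proximal tubule markers was 1100 to 2250 FPKM over the 17 mice, that of 5 podocyte markers 59.0 to 102 FPKM, and that of 6 hepatocyte markers 13.9 to 26.3 FPKM. Ctrl 3 stood apart from the other Ctrl mice by its adipocyte transcripts. The 6 adipocyte markers summed to 91.3 FPKM there and to 6.20 to 12.4 FPKM in the other 4 Ctrl mice, and Adipoq, which encodes adiponectin, was at 9.83 FPKM in Ctrl 3, 3.11 in Dapa 7, 0.927 in Dapa 10 and 2.81 in Dapa 11. It had 2 counts in Dapa 12 and 0 in the other 12 mice, and Adipoq and Retn had 0 counts in every Case mouse. The sum of the 6 markers was 3.22 to 21.6 FPKM in Case and 5.26 to 28.7 FPKM in Dapa, and only 1 of the 6 passed the filter in each comparison, without being called. The comparisons with Ctrl are therefore also given without the 4 libraries in which Adipoq exceeded 0.5 FPKM, where a call changed.

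Before the levels, the regulatory sequence around the start sites was read, since FOXO1 and insulin act on some of these genes through short promoter motifs. RefSeq (GRCm38.p6) gave 10 promoters for 9 of the 10 genes and none for Insr. Each covered 250 bases before and 50 bases after the start. The starts used for Igf1, Igf1r and Irs2 and the second Lepr start were not near the gene start in the GENCODE vM21 annotation. Matches and their absence there hold for the RefSeq starts only. The core of the insulin response sequence, CAAAACA or, on the opposite strand, TGTTTTG, was present in 4 of these 10 promoters and in 6.28% of all 32851 promoters of the same length. The other FOXO motif searched, GTAAACA or, on the opposite strand, TGTTTAC, was in none of the 10 and in 3.65% of all promoters. A match is a stretch of letters, not a measured site. The promoter stretches that hold a match are shown because they are the only ones among these genes that do, each read 5′ to 3′ on the strand of its gene with the match in capitals. They are chr11:7197637-7197776 of the plus strand for Igfbp1, chr1:82291450-82291589 of the minus strand for Irs1 and chr8:11008940-11009079 of the minus strand for Irs2, and chr4:101717782-101717808 of the plus strand before the second of the 2 Lepr starts, which lies within an exon of Lepr transcripts.
Igfbp1: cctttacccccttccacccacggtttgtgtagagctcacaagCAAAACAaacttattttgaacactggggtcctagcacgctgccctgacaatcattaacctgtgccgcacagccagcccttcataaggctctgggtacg
Irs1: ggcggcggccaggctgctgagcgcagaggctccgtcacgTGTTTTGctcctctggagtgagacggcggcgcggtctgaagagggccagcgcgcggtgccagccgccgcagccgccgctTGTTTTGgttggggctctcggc
Irs2: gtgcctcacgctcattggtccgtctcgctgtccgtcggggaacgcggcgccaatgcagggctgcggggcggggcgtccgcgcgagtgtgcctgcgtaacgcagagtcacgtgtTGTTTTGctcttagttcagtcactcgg
Lepr, second start: aaattagaaaCAAAACAaatagaaaag
The match began 108 bases before the start in Igfbp1, 37 bases before it in Irs2 and 114 bases before it in Lepr, and Irs1 held 2 matches, at 111 and 32 bases before its start. Among the genes with a match, Irs1 was higher in Dapa than in Ctrl, and the changes of Igfbp1, Irs2 and Lepr did not pass the test in any comparison. Leprot, Igf1r and Igfbp3, which changed in at least 1 comparison, held neither motif in these windows.

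The genes fell into an order of levels that was similar in the 3 groups. In Ctrl, Igfbp3 was highest at 43.6 ± 14.5 FPKM (mean ± SD, n = 5), followed by Igf1r (22.1 ± 3.34), Leprot (19.2 ± 2.15) and Insr (15.9 ± 1.45). Igfbp1 (9.26 ± 5.62) and Foxo1 (7.81 ± 1.22) came next, then Irs2 (3.28 ± 0.812) and Irs1 (2.29 ± 0.491), and Lepr (1.01 ± 0.572) and Igf1 (0.507 ± 0.168) were lowest. Of the neighbours in this order, Foxo1 and Irs2 as well as Irs1 and Lepr had ranges that lay apart over the 5 Ctrl mice, and all other neighbours overlapped. In Case, Leprot lay second and above Insr without overlap, and in Dapa, Leprot was first with 27.3 ± 1.51 FPKM (n = 6), overlapping Igfbp3 with 26.3 ± 3.26 (n = 6). Igf1 was the lowest of the 10 genes in all 3 groups on this scale, and had the greatest length used. In Ctrl it had 57 to 156 counts, against 58 to 251 for Lepr.

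**Figure D1:**
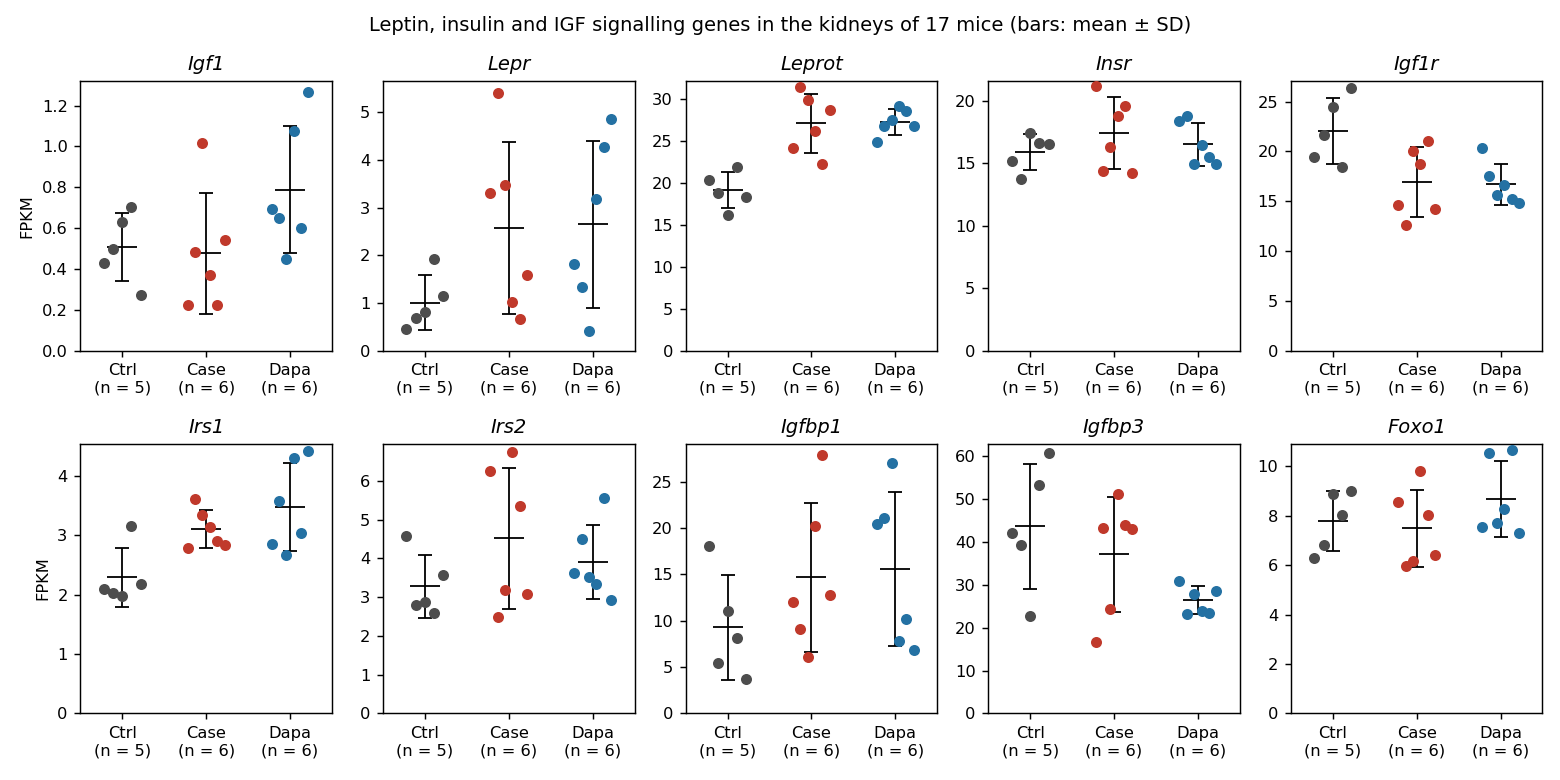
FPKM of each of the 10 genes in each mouse of the Ctrl (n = 5), Case (n = 6) and Dapa (n = 6) groups, 1 panel per gene with its own axis from 0; points are mice, and the black bars give the mean ± SD. Leprot is the gene whose Case and Dapa mice all lie above the 5 Ctrl mice, while Lepr spreads from 0.417 to 5.40 FPKM within the db/db mice.

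Igf1 encodes IGF-1, a growth hormone-induced ligand made mainly in the liver, and lies at chr10:87858265-87937042 on the plus strand (mm10). Its FPKM was 0.431, 0.496, 0.630, 0.702 and 0.275 in Ctrl 1 to 5. In Case it was 0.222 at the lowest, 0.427 at the median and 1.02 at the highest, and in Dapa 0.449, 0.672 and 1.27. The groups overlapped, and Dapa 10 and 12 lay above all Case mice. The log2 fold change was 0.71 ± 0.35 (SE) between Dapa and Case (edgeR q = 0.405), 0.53 ± 0.28 between Dapa and Ctrl (q = 0.180) and -0.18 ± 0.36 in Case relative to Ctrl (q = 0.792), and none passed the test. With a term for 8 libraries, q was 0.0212 between Dapa and Ctrl. These levels rested on 42 to 218 counts per mouse. The other ligands, Lep and Igf2, were at or near 0 in most mice. Lep reached 0.499 FPKM in Dapa 7 and 0.968 FPKM in Dapa 11, where Igf1 was at 0.600 FPKM. Lep, the leptin gene, had 0 counts in 4 of 5 Ctrl mice, in 6 of 6 Case mice and in 3 of 6 Dapa mice, where a count of 0 allows up to 3 counts in a library. Its counts were 4 in Ctrl 3, 26 in Dapa 7, 1 in Dapa 10 and 46 in Dapa 11, the 4 libraries in which Adipoq exceeded 0.5 FPKM. Igf2 stayed between 0.0428 and 0.177 FPKM in all mice. The pancreatic genes Ins1 and Ins2 were listed with the insulin receptor genes, but no levels of them are given here.

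Lepr, at chr4:101717404-101815352 on the plus strand, is the gene that carries the db mutation. The counts pool all its transcripts, so they do not check the genotype. Its FPKM was 0.464, 0.681, 0.813, 1.93 and 1.15 in Ctrl 1 to 5. In Case it was 3.30, 5.40, 3.47, 1.01, 0.659 and 1.59 in mice 1 to 6, and in Dapa 1.82, 1.33, 0.417, 3.18, 4.27 and 4.85 in mice 7 to 12. The values show 3 Case mice and 3 Dapa mice above every Ctrl mouse, and the other 3 of each group within the Ctrl range or, for Dapa 9, below it. Lepr had a log2 fold change of 1.27 ± 0.50 in Case relative to Ctrl, a 2.41-fold higher mean that did not pass the test (edgeR q = 0.110), and of 1.28 ± 0.51 in Dapa relative to Ctrl (q = 0.0737). Between Dapa and Case it was 0.01 ± 0.54, and the interval of 2 SE on either side, -1.08 to 1.10, covers more than a 2-fold change in both directions. With a term for the 7 libraries the change turned to -0.68 (q = 0.675), and the Dapa mice in these libraries had a mean of 4.10 FPKM against 1.19 in the other 3. The coefficient of variation was 70.4% in Case and 65.9% in Dapa, against 56.8% in Ctrl. The calls turned on single mice. Without Case 5, q was 0.0445 between Case and Ctrl, and without Ctrl 4 or Dapa 9 it was 0.0387 or 0.0161 between Dapa and Ctrl. Without Ctrl 3 and the 3 Dapa libraries with Adipoq, the change between Dapa and Ctrl was 0.97 (q = 0.393), and with a term for 8 libraries it was 1.33 (q = 0.0418).

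The summed level of 8 endothelial markers differed along with Lepr within Dapa. They summed to 122, 118 and 150 FPKM in Dapa 10, 11 and 12, the mice with the highest Lepr, and to 91.8, 95.0 and 80.4 FPKM in Dapa 7, 8 and 9. In Case the sum was 82.2, 113 and 124 FPKM in Case 1, 2 and 3, the mice with the highest Lepr, and 99.1, 85.3 and 89.7 FPKM in Case 4, 5 and 6, so that Case 1 had high Lepr with the lowest sum. Dapa 10 to 12 were also in the possible batch. In all, the sum was 58.7 to 105 FPKM in Ctrl, 82.2 to 124 in Case and 80.4 to 150 in Dapa, no endothelial marker was at 0 in any group, and 1 of the 8 was higher in each comparison with Ctrl, where 6.09% of all genes were higher in Case and 14.2% in Dapa. The sum of the 6 proximal tubule markers was lower in the mice with the highest Lepr in both db/db groups. It was 1139, 1381 and 1096 FPKM in Case 1, 2 and 3, against 2247, 1826 and 1689 in Case 4, 5 and 6. In Dapa 10, 11 and 12 it was 1446, 1442 and 1313 FPKM, against 1650, 1739 and 1698 in Dapa 7, 8 and 9. The collecting duct sum was higher in these mice in Dapa only, and the thick limb and macrophage sums in Case only. The part of these sums in the Lepr values was not tested. Lepr may share reads with Gm12797, since 2.37% of its 50-base stretches also occur in transcripts of other genes, and Gm12797 was the gene that shared the largest number.

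Leprot encodes endospanin-1, a small membrane protein that holds back the leptin receptor from the cell surface, and lies near Lepr at chr4:101647718-101659364 on the same strand, without overlap with Lepr in the annotation. Its FPKM was 20.4, 18.9, 16.2, 21.9 and 18.4 in Ctrl 1 to 5. In Case it was 22.3 at the lowest, 27.5 at the median and 31.4 at the highest, and in Dapa 24.9, 27.2 and 29.2. In FPKM, which lacks the TMM scaling of the edgeR test, all 12 db/db mice lay above all 5 Ctrl mice. The nearest were Ctrl 4 at 21.9 and Case 5 at 22.3. The ratio of the FPKM means to Ctrl was 1.42 in Case and 1.43 in Dapa, above the edgeR folds. Whether the ranges stay apart with TMM scaling was not tested. Leprot rose 1.34-fold in Case (log2 fold change 0.42 ± 0.11, edgeR q = 0.0228) and 1.32-fold in Dapa (0.41 ± 0.08, q = 0.00423) relative to Ctrl, and Dapa differed from Case by -0.01 ± 0.09 (q = 0.966), with an interval of -0.20 to 0.18. The call between Case and Ctrl was lost without Ctrl 2, Ctrl 3 or Ctrl 5 (q = 0.0542, 0.0659 and 0.0681) and with a term for the 7 libraries (q = 0.0685) or for 8 (q = 0.147), the latter counting a mismatch of over 0.1%, and with the replicate block (q = 0.10). The log2 fold change was 0.41, 0.39 and 0.38 in these 3 fits. The call between Dapa and Ctrl was lost without the 4 libraries with Adipoq (log2 fold change 0.36, q = 0.060). Of the 50-base stretches of Leprot, 2.06% also occur in other transcripts, and Gm5548 was the gene that shared the largest number.

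Insr encodes the insulin receptor and lies at chr8:3150922-3279617 on the minus strand. Its FPKM was 15.2, 13.8, 17.4, 16.6 and 16.6 in Ctrl 1 to 5. Case mice had 14.3, 17.5 and 21.2 at the lowest, the median and the highest, and in Dapa 14.9, 16.0 and 18.8. The 3 groups overlapped, and 3 of 6 Case mice and 2 of 6 Dapa mice lay above all Ctrl mice. The log2 fold changes were 0.05 ± 0.12 between Case and Ctrl (edgeR q = 0.816), -0.10 ± 0.11 between Dapa and Case (q = 0.739) and -0.05 ± 0.09 between Dapa and Ctrl (q = 0.676). The intervals of 2 SE stayed within -0.32 and 0.28 in these comparisons, so that a change of 2-fold lay outside all of them.

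Igf1r, the receptor for IGF-1, lies at chr7:67952859-68226780 on the plus strand. Its FPKM was 19.4, 21.7, 24.4, 18.4 and 26.4 in Ctrl 1 to 5. The Case values were 12.6, 16.7 and 21.1 at the lowest, the median and the highest, and in Dapa 14.8, 16.1 and 20.4. Case mice lay below all Ctrl mice in 3 of 6 mice, and Dapa mice in 5 of 6. Igf1r fell by 0.47 ± 0.14 on the log2 scale in Case (edgeR q = 0.0466) and by 0.51 ± 0.11 in Dapa (q = 0.00568) relative to Ctrl, which are means 1.38-fold and 1.42-fold lower, and Dapa and Case differed by -0.04 ± 0.13 (q = 0.928). The call between Case and Ctrl was lost without Ctrl 1, 2, 3 or 5 (q = 0.0691, 0.0870, 0.115 and 0.101) and without Case 1, 2, 4 or 6 (q = 0.0701, 0.0785, 0.0556 and 0.0817). It was also lost with limma on log2(FPKM + 1) and log2(FPKM + 0.1) (q = 0.0975 and 0.0964), without the filter on low counts (q = 0.0541), with the term for 8 libraries (q = 0.0565) and with the replicate block (q = 0.0871). The block fit also leaves out Case 6, and the same mice without the block lost the call too. When 1 mouse was left out, the log2 fold change between Case and Ctrl stayed between -0.56 and -0.39. The call between Dapa and Ctrl was kept when any 1 mouse was left out (q = 0.00221 to 0.0202) and without the 4 libraries with Adipoq (q = 0.0492).

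Irs1, which docks PI3K to the active insulin and IGF-1 receptors, lies at chr1:82233101-82291416 on the minus strand. Its FPKM was 2.10, 2.03, 1.97, 3.16 and 2.18 in Ctrl 1 to 5. Case mice had 2.79, 3.02 and 3.62 at the lowest, the median and the highest, and in Dapa 2.67, 3.31 and 4.41. Ctrl 4 alone reached the db/db range, and the other 4 Ctrl mice lay below all 12 db/db mice. Irs1 rose 1.41-fold in Dapa relative to Ctrl (log2 fold change 0.50 ± 0.16, edgeR q = 0.0305). In Case the change was 0.36 ± 0.12 (q = 0.0601), which did not pass, and Dapa and Case differed by 0.14 ± 0.13 (q = 0.669). Without Ctrl 4, q was 0.00719 between Case and Ctrl, and DESeq2 gave an adjusted p of 0.0341 there with all mice. The call between Dapa and Ctrl was lost without Ctrl 1, 2, 3 or 5 (q = 0.0585, 0.0647, 0.0659 and 0.0675), without Dapa 10 or 12 (q = 0.0673 and 0.0531) and without the 4 libraries with Adipoq (q = 0.119), where the log2 fold change was 0.50, as with all mice.

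Irs2, the substrate important in liver and islets, lies at chr8:10986980-11008458 on the minus strand. Its FPKM was 4.58, 2.80, 2.87, 2.59 and 3.56 in Ctrl 1 to 5. Among Case mice it was 2.48, 4.27 and 6.74 at the lowest, the median and the highest, and in Dapa 2.93, 3.56 and 5.55. Case mice lay both above and below the Ctrl range. The log2 fold changes were 0.38 ± 0.27 between Case and Ctrl (edgeR q = 0.393), -0.23 ± 0.25 between Dapa and Case (q = 0.715) and 0.14 ± 0.19 between Dapa and Ctrl (q = 0.617). Exons of Irs1 and Irs2 overlap those of Gm9747 and 9530052E02Rik on the opposite strand, which had at most 2 and 28 counts in a mouse. The libraries kept strand, but the strand setting of the counting is not given in the sources used here.

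The binding proteins carry IGFs in blood and tissue and set how much of them reaches the receptor. Igfbp1, which is repressed by insulin, lies at chr11:7197782-7202546 on the plus strand. Its FPKM was 18.0, 5.40, 11.0, 8.15 and 3.75 in Ctrl 1 to 5, and in Case 12.0, 9.14, 6.03, 20.2, 27.9 and 12.8 in mice 1 to 6. In Dapa it was 20.4, 21.1, 27.0, 7.83, 10.2 and 6.89 in mice 7 to 12. The spread within each group was wide, with coefficients of variation of 60.7%, 54.6% and 53.6% in Ctrl, Case and Dapa, and the groups overlapped. The log2 fold changes were 0.58 ± 0.44 between Case and Ctrl (edgeR q = 0.414), 0.07 ± 0.40 between Dapa and Case (q = 0.954) and 0.64 ± 0.44 between Dapa and Ctrl (q = 0.296). When 1 mouse was left out, the change ran from 0.28 to 0.99 between Case and Ctrl and from 0.40 to 1.07 between Dapa and Ctrl, and none passed.

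Igfbp3, the main IGF carrier in blood, lies at chr11:7206086-7213923 on the minus strand, next to Igfbp1. Its FPKM was 42.1, 39.3, 22.7, 53.4 and 60.7 in Ctrl 1 to 5. In Case it was 16.7, 43.1 and 51.2 at the lowest, the median and the highest, and in Dapa 23.1, 25.9 and 31.0. The Dapa mice were close to each other, and Ctrl 3 lay below all of them while the other 4 Ctrl mice lay above. Igfbp3 fell by 0.83 ± 0.19 on the log2 scale in Dapa relative to Ctrl (edgeR q = 0.00686), a mean 1.78-fold lower, and this call was kept when any 1 mouse was left out (q = 0.00123 to 0.0200) and without the 4 libraries with Adipoq (q = 0.0103). The change was -0.30 ± 0.29 between Case and Ctrl (q = 0.538) and -0.52 ± 0.23 between Dapa and Case, which had an unadjusted p of 0.0405 in edgeR's quasi-likelihood test and did not pass (q = 0.367). Case 1 (16.7 FPKM) and Case 3 (24.4 FPKM) lay within or below the Dapa range, and the other 4 Case mice above it.

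Foxo1, the transcription factor inhibited by insulin, lies at chr3:52268336-52353221 on the plus strand. Its FPKM was 6.29, 6.81, 8.90, 8.02 and 9.00 in Ctrl 1 to 5. The Case values were 5.96, 7.22 and 9.82 at the lowest, the median and the highest, and in Dapa 7.31, 7.98 and 10.7. The groups overlapped. The log2 fold changes were -0.13 ± 0.15 between Case and Ctrl (edgeR q = 0.589), 0.18 ± 0.14 between Dapa and Case (q = 0.598) and 0.04 ± 0.12 between Dapa and Ctrl (q = 0.814). An exon of Foxo1 overlaps Gm20402 on the opposite strand, which had at most 4 counts in a mouse.

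**Figure D2:**
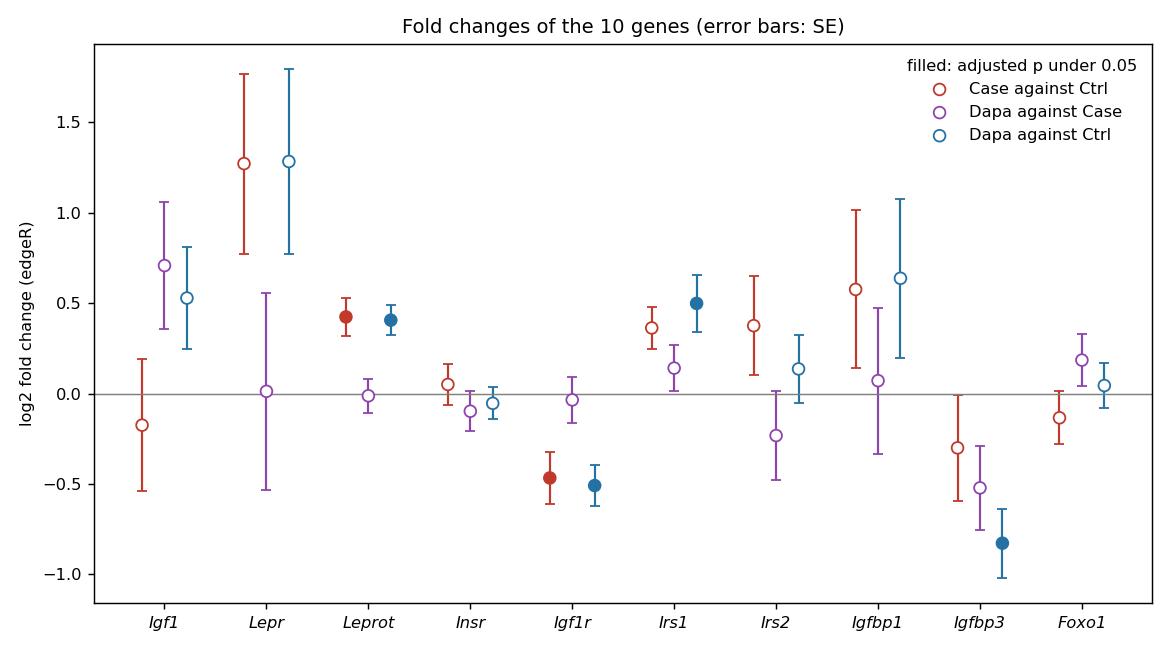
log2 fold change of each of the 10 genes in edgeR for the 3 pairs of groups (red, Case to Ctrl; purple, Dapa to Case; blue, Dapa to Ctrl), with error bars of 1 SE; filled points have an adjusted p under 0.05. Leprot (0.42 and 0.41) and Igf1r (-0.47 and -0.51) are filled in both comparisons with Ctrl, Irs1 and Igfbp3 only in Dapa against Ctrl, and no point is filled in Dapa against Case.

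Of the 10 genes, 1 was higher (Leprot) and 1 lower (Igf1r) in Case than in Ctrl, a total that ranged from 0 to 3 when 1 mouse was left out, where 6.09% of the 14582 genes tested were higher and 6.91% lower. With limma on log2(FPKM + 0.1) the split was 2 higher and 0 lower. Between Dapa and Ctrl, 2 were higher (Leprot and Irs1) and 2 lower (Igf1r and Igfbp3), where 14.2% of the 14647 genes tested were higher and 14.9% lower. Only Igf1r and Igfbp3 passed there without the 4 libraries with Adipoq, where 11.2% of all genes were called, while the log2 fold changes of Leprot (0.36) and Irs1 (0.50) stayed near those with all mice (0.41 and 0.50). These comparisons share the Ctrl mice. Between Dapa and Case none of the 10 was called, where 0.0% of 14573 genes were called by edgeR, and 1 of the 10, Igfbp3, had an unadjusted p under 0.05, where 12.9% of all genes had. DESeq2 called 0 of the 10 between Dapa and Case and 202 of all genes. Over the 10 genes the median log2 fold change was 0.21 in Case and 0.27 in Dapa relative to Ctrl, where the medians of all genes tested were 0.03 and 0.02. By the rule of the study for a differentially expressed gene, which adds a more than 2-fold change between FPKM means to the adjusted p, none of the 10 genes qualified, where 3.79% of all genes did in Case against Ctrl and 7.18% in Dapa against Ctrl. By FPKM, without TMM scaling, Leprot was the single gene of the 10 without overlap between the groups in each comparison with Ctrl, where 8.43% and 14.5% of all genes had no overlap. None had this between Dapa and Case, where 0.48% had. For 2 genes the difference between comparisons did not rest on a test of its own, since Irs1 and Igfbp3 passed in Dapa and not in Case while the direct comparison of Dapa with Case did not pass for either.

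The mice of a group differed from one another along a few of these genes. Case 1 to 3 and Dapa 10 to 12 were the mice with the highest Lepr, at 3.18 to 5.40 FPKM. Within Dapa, these were also the 3 mice with the lowest Igfbp1, at 6.89 to 10.2 FPKM, while Dapa 7 to 9 had 20.4 to 27.0 FPKM. Dapa 10 to 12 are also the Dapa mice of the possible batch, with a mean Igfbp1 of 8.31 FPKM against 22.8 in the other 3, whereas in Ctrl the 3 mice of that batch had a mean of 12.4 FPKM against 4.57 in the other 2. Within Case, the mice with the lowest Lepr, Case 4 and Case 5, had the highest Igfbp1, at 20.2 and 27.9 FPKM. The mice with the highest Lepr also had the lowest sums of the 6 proximal tubule markers. These were 1096 to 1381 FPKM in Case 1 to 3, against 1689 to 2247 in Case 4 to 6. In Dapa 10 to 12 they were 1313 to 1446 FPKM, against 1650 to 1739 in Dapa 7 to 9. This split of the mice was noticed in the values, and neither it nor the part of the markers in it was tested. Among the pairs of the 9 genes with a mean of at least 1 FPKM, the profiles over the 17 mice were nearest for Leprot and Irs1 (root mean square difference of standardized log2(FPKM + 1) values 0.655) and farthest for Leprot and Igf1r (1.89).

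**Figure D3:**
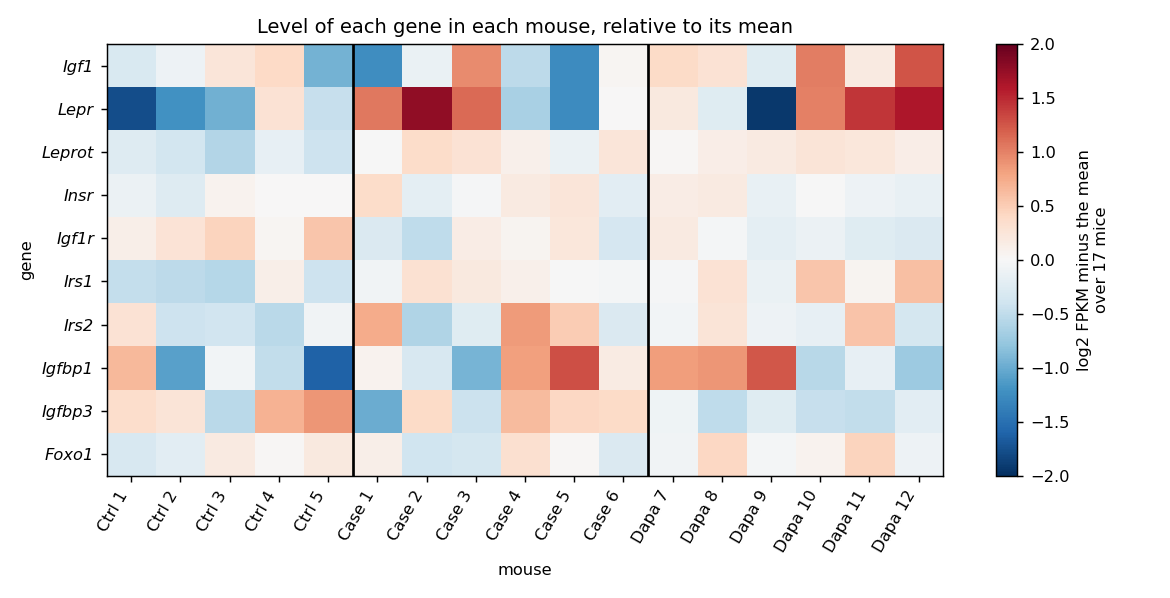
log2 FPKM of each gene in each mouse minus the mean of that gene over the 17 mice, with genes as rows and mice as columns, and vertical lines between Ctrl, Case and Dapa. Lepr and Igfbp1 are the rows with the strongest colours: Lepr is high in Case 1 to 3 and Dapa 10 to 12, and Igfbp1 is high in Case 4 and 5 and Dapa 7 to 9.

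The genes whose profile was most like that of Lepr over the 17 mice were Rasgef1b (0.226), Ahnak (0.335) and Mrps6 (0.355), where the median over 11454 genes was 1.31. Rasgef1b, which encodes a guanine nucleotide exchange factor, had mean levels of 1.33, 2.80 and 3.27 FPKM in Ctrl, Case and Dapa. For Leprot the nearest were Mr1 (0.403), Csgalnact2 (0.405) and Defb1 (0.409), where the median was 1.3. Mr1, an antigen-presenting molecule, was at 0.558, 1.15 and 1.27 FPKM, and Defb1, a beta-defensin of the distal tubule, at 156, 373 and 304 FPKM in Ctrl, Case and Dapa.

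Around these genes, 98 other genes of the pathways were listed, of which 96 were in the table. Between Case and Ctrl, 90 were tested, and 11 rose and 6 fell, or 18.9%, where 13.0% of all genes were called. Between Dapa and Ctrl, 91 were tested, and 15 rose and 11 fell, or 28.6%, near the 29.1% of all genes. With limma on log2(FPKM + 1) the splits were 13 higher and 5 lower, and 23 higher and 8 lower, and limma on log2(FPKM + 0.1) moved the median of all genes in the latter comparison to 0.11. Between Dapa and Case none of 91 was called. The smallest adjusted p there was 0.231, and 15 had an unadjusted p under 0.05, where 12.9% of all genes had. Their median log2 fold change was -0.02 in Case and 0.04 in Dapa relative to Ctrl, where those of all genes tested were 0.03 and 0.02. The first count, 17, dropped to 11 without Ctrl 1 or Ctrl 2, to 7 without Ctrl 3 and to 8 without Ctrl 5. Over all genes, the 1895 calls dropped to 1160, 1150, 1002 and 1125 without Ctrl 1, 2, 3 and 5. The 26 of Dapa dropped to 11, of which 4 were higher and 7 lower, without the 4 libraries with Adipoq, where the calls over all genes dropped from 4260 to 1650 (11.2% of those tested, with 5.11% higher and 6.11% lower).

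**Figure D4:**
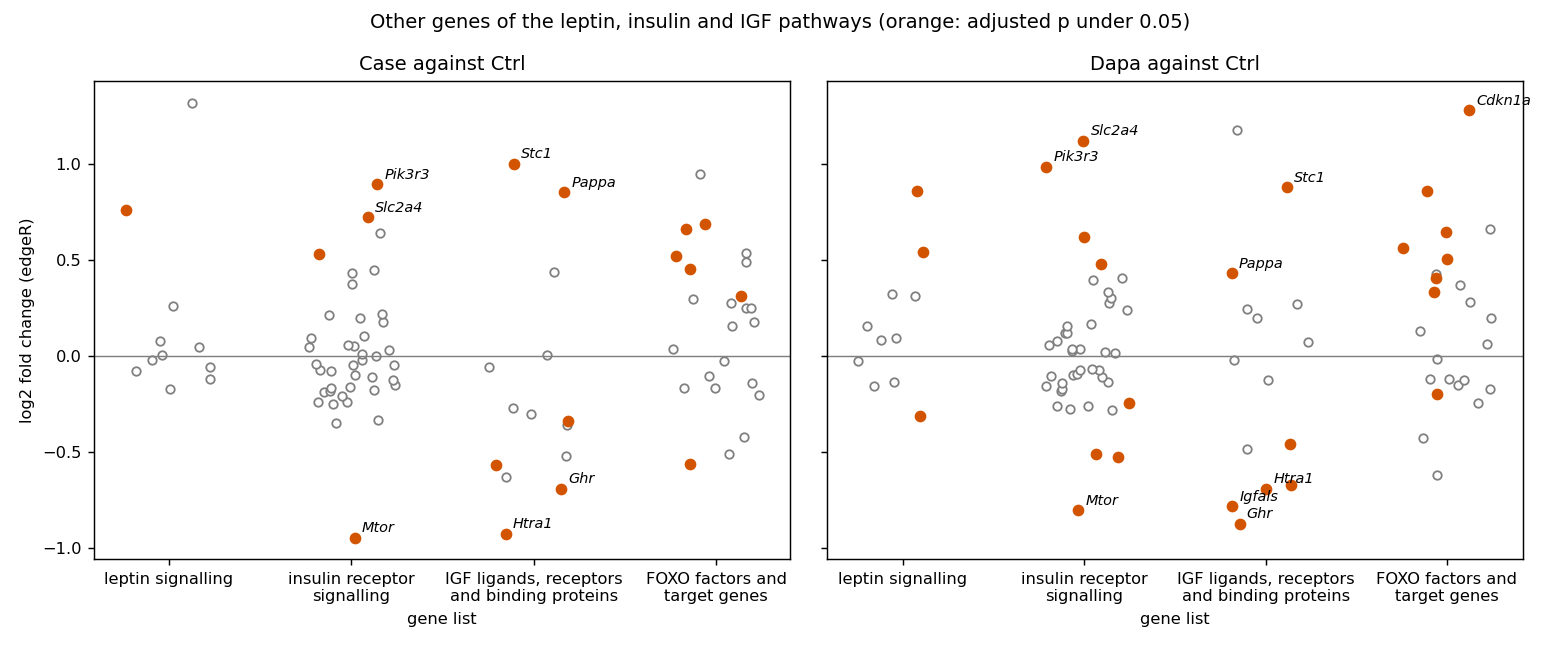
log2 fold change in edgeR of the tested genes of 4 pathway lists for Case against Ctrl (90 genes) and Dapa against Ctrl (91 genes), 1 column per list with points spread sideways for sight; orange points have an adjusted p under 0.05, and the genes named by rule are labelled. Mtor and Ghr lie among the lowest and Pik3r3 among the highest points of both panels.

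Of the leptin list, 1 of 11 tested genes (9.09%) changed in Case and 3 of 11 (27.3%) in Dapa relative to Ctrl, neither share above that of all genes (13.0% and 29.1%). The gene called in Case was Stat3, the transcription factor downstream of the leptin receptor, which rose by 0.76 ± 0.19 on the log2 scale (edgeR q = 0.0202). In Dapa relative to Ctrl, Stat3 (0.54 ± 0.10, q = 0.00255) and Socs3, a feedback inhibitor of the receptor (0.86 ± 0.25, q = 0.0211), rose and the phosphatase gene Ptpn2 fell by 0.32 ± 0.11 (q = 0.0448). These 3 are named because the count was small and were chosen after their values were seen. The call of Stat3 in Case was lost without Ctrl 1, 3 or 5 (q = 0.0530, 0.0502 and 0.0546), and that of Socs3 in Dapa without Ctrl 2 or 5 (q = 0.0516 and 0.0538). Without Case 5 or Case 6, Socs3 also passed between Case and Ctrl (q = 0.0392 and 0.0354). The call of Ptpn2 was kept without Ctrl 5 or Dapa 9 and lost without any other single mouse (q = 0.0596 to 0.119). Without the 4 libraries with Adipoq neither Socs3 (log2 fold change 0.98, q = 0.110) nor Ptpn2 (-0.17, q = 0.450) passed between Dapa and Ctrl.

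Of the insulin receptor list, 4 of 41 genes (9.76%) changed in Case and 8 of 41 (19.5%) in Dapa relative to Ctrl, against 13.0% and 29.1% of all genes. Mtor, the growth kinase at the end of the pathway, was at a mean of 21.3 ± 3.43 FPKM in Ctrl (n = 5), 11.7 ± 1.41 in Case (n = 6) and 13.2 ± 2.20 in Dapa (n = 6). It fell by 0.95 ± 0.13 in Case (edgeR q = 0.000906) without overlap between the groups, and by 0.80 ± 0.13 in Dapa (q = 0.0012). Pik3r3, a regulatory subunit of PI3K, rose from 2.69 ± 0.736 FPKM in Ctrl to 5.29 ± 1.58 in Case (0.89 ± 0.20, q = 0.0138) and 5.73 ± 1.38 in Dapa (0.99 ± 0.18, q = 0.00222). The second call was lost without the 4 libraries with Adipoq (log2 fold change 0.89, q = 0.0562). Slc2a4, the insulin-responsive glucose transporter GLUT4, was at 2.07 to 3.70 FPKM in Ctrl, 4.49 to 5.82 in Case and 5.77 to 8.70 in Dapa. The Ctrl range lay below both others, while Case and Dapa overlapped only at their edges. Slc2a4 rose by 0.72 ± 0.13 in Case (q = 0.0043) and by 1.12 ± 0.15 in Dapa (q = 0.000396) relative to Ctrl, and Dapa and Case differed by 0.40 ± 0.12 (unadjusted p = 0.00395 in edgeR's quasi-likelihood test, q = 0.231).

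Of the list of IGF ligands, receptors and binding proteins, 6 of 14 genes (42.9%) changed in Case, 2 upward and 4 downward, and 7 of 15 (46.7%) in Dapa relative to Ctrl, 2 upward and 5 downward, where 13.0% and 29.1% of all genes were called. Ghr, the growth hormone receptor that drives Igf1 expression, fell by 0.69 ± 0.14 in Case (edgeR q = 0.0098) and by 0.88 ± 0.18 in Dapa (q = 0.00453), from 44.3 ± 7.81 FPKM in Ctrl (n = 5) to 29.0 ± 4.57 and 26.1 ± 7.19 (n = 6 each). Htra1, a protease that cuts IGF binding proteins, fell by 0.93 ± 0.18 in Case (q = 0.00585), and its Case mice, at 10.1 to 22.2 FPKM, lay below the Ctrl mice, at 24.6 to 27.6 FPKM. In Dapa it fell by 0.69 ± 0.18 (q = 0.0142) with overlap, since Dapa 7 had 27.3 FPKM. Igfals, the third partner of the IGF-1 and IGFBP-3 complex in blood, fell by 0.78 ± 0.18 in Dapa (q = 0.00674), from 4.22 ± 0.981 FPKM in Ctrl to 2.65 ± 0.373, and its change in Case was -0.52 ± 0.20 (q = 0.107). Of the list, 2 genes rose in both comparisons: Stc1, an inhibitor of the protease PAPP-A, by 1.00 ± 0.20 (q = 0.00707) in Case and 0.88 ± 0.27 (q = 0.0286) in Dapa, and Pappa itself by 0.85 ± 0.23 (q = 0.0289) and 0.43 ± 0.14 (q = 0.0388). The call of Stc1 in Dapa was lost without Ctrl 1, 2 or 5 or Dapa 11 (q = 0.0624, 0.0548, 0.0576 and 0.0525). Both calls of Pappa were lost without Ctrl 1, 2, 3 or 5 (q = 0.0672, 0.0741, 0.0669 and 0.0574 in Case, and 0.0745, 0.0852, 0.0661 and 0.0539 in Dapa), the first also without Case 1, 2 or 3 (q = 0.0542, 0.0504 and 0.0528) and the second without Dapa 7, 8, 11 or 12 (q = 0.0622, 0.0708, 0.0574 and 0.0501). Neither Igfals (log2 fold change -0.70, q = 0.0993) nor Pappa (0.46, q = 0.138) passed between Dapa and Ctrl without the 4 libraries with Adipoq.

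Of the list of FOXO factors and target genes, 5 of 24 rose and 1 fell in Case (25.0%), and 7 rose and 1 fell in Dapa (33.3%) relative to Ctrl, where 13.0% and 29.1% of all genes were called, so that the share in Dapa was near that of all genes. Cdkn1a, which encodes the cell cycle inhibitor p21, was at 3.24 ± 1.35 FPKM in Ctrl (n = 5), 4.97 ± 2.09 in Case and 8.45 ± 2.97 in Dapa (n = 6 each). It rose by 1.28 ± 0.28 in Dapa relative to Ctrl (edgeR q = 0.00504), and Dapa and Case differed by 0.75 ± 0.26 (unadjusted p = 0.0111 in edgeR's quasi-likelihood test, q = 0.269). Without the 4 libraries with Adipoq, Cdkn1a did not pass between Dapa and Ctrl (log2 fold change 0.98, q = 0.0956).

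Marker genes of kidney cell types were also called in the comparisons with Ctrl, where 6.09% of all genes were higher and 6.91% lower in Case, and 14.2% higher and 14.9% lower in Dapa. Of 6 proximal tubule markers, 2 fell in Case and 5 in Dapa relative to Ctrl, and their sum was 1790 to 2000 FPKM in Ctrl, 1100 to 2250 in Case and 1310 to 1740 in Dapa. Of 5 collecting duct markers, 3 rose in each comparison, and their sum was 88.8 to 115 FPKM in Ctrl, 118 to 190 in Case and 131 to 313 in Dapa. Of 5 podocyte markers 2 rose in each, and of 5 markers of the thick ascending limb and distal tubule 1 rose in Case and 2 in Dapa. No marker of these 4 lists was at 0 in every mouse of a group. Between Dapa and Case none of 47 tested markers was called by edgeR, and 5 had an unadjusted p under 0.05, where 12.9% of all genes had. The part of the differences in these markers from Ctrl in the values of the leptin, insulin and IGF genes was not tested.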

How the data were processed

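RNA of whole kidneys was sequenced, 1 strand-specific library for each of 17 mice, and groups follow the sample labels. Reads were aligned by the authors to mm10 with HISAT2, and the deposited count per gene came from Stringtie. FPKM values of the authors stand in the same deposited table. For genes with at least 50 counts in every mouse they deviated from count over total and length by at most 0.00216%, so no TMM factor is in them. Of 22561 genes, 3 with entries over 2 lines were left out. Annotation columns were not used, and 0 further columns held values per sample.

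The edgeR package (version 4.0.16, R 4.3.3) was run on each pair of groups separately, with TMM scaling, filterByExpr and the quasi-likelihood test. In the text, q is its p adjusted by Benjamini-Hochberg over all genes tested, with a threshold of 0.05, and the SE is the size of the log2 fold change over the square root of F. At 13039535 to 17779635 counts per library, genes with few counts such as Igf1 carry a large counting error, and the limit given for a count of 0 covers counting error only. The genes and lists were chosen with earlier results of these data known. Named were the 10 genes, up to 3 called pathway genes with the highest and 3 with the lowest log2 fold change in each comparison, the other ligands, and the 3 genes of most similar profile for Lepr and for Leprot, the member with the smallest q in Case against Ctrl. Besides the lists in the text, markers of fibroblasts and mesangium (0 of 6 called in Case and 2 higher in Dapa relative to Ctrl), of macrophages (1 of 6 higher in each) and of hepatocytes were examined, where 6.09% of all genes were higher in Case and 14.2% in Dapa. None of 5 hepatocyte markers tested was called by edgeR in a comparison, and 1 had an unadjusted p under 0.05, between Dapa and Case. Coordinates are those of the deposited table, whose spans of Insr, Irs2 and Igf1r are shorter than in GENCODE vM21. Overlaps and shared stretches of 50 bases came from that annotation.

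Alternatives comprised DESeq2 1.42.0, median ratio size factors, omitting the filter, requiring 10 counts in all samples, a joint fit of the 3 groups, limma 3.58.1 on log2(FPKM + 1) and on log2(FPKM + 0.1), a term for the 7 libraries, a replicate block, and leaving out single mice. A term for 8 libraries, the mice of the block without it, and the fit without the 4 libraries with Adipoq were added after seeing the data. The fits were tested on simulated data.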

Additional observations from a re-analysis of the deposited data

Results flagged for a closer look

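The FPKM of Irs1 in Ctrl 4, 3.16, lay far from the other 4 Ctrl mice, which had 1.97 to 2.18 FPKM. The gap to the nearest of them was 0.827 of the range of the group. This was the single value that stood out in this way among the 30 sets of mice examined (10 genes in 3 groups), and chance alone marks about 1 in 20 such sets.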

How the results depend on the processing

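Of the 10 genes, 2 passed between Case and Ctrl. The number was 1 without the filter, with limma on log2(FPKM + 1) and with a term for the 7 libraries, 0 with the term for 8 libraries, and 0 to 3 when 1 mouse was left out. Of the pathway genes, 17 passed there, against 7 with the term for 8 libraries and 7 to 20 when 1 mouse was left out. Over all genes, 1895 passed there, against 1002 to 2154 when 1 mouse was left out. Between Dapa and Ctrl, 4 of the 10 genes and 26 pathway genes passed, against 2 and 11 without the libraries with Adipoq over 0.5 FPKM, where the calls over all genes dropped from 4260 to 1650. With the term for 8 libraries 6 of the 10 passed, Igf1 and Lepr being added, and when 1 mouse was left out 3 to 5 of the 10 and 19 to 31 pathway genes did. Over all genes, 4463 passed with that term and 3227 to 4690 when 1 mouse was left out. Between Dapa and Case edgeR called 0 of either, with an unadjusted p under 0.05 for 1 and 15, and each alternative that was run, DESeq2 included, also called 0.

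The replicate number as a block could be fitted for Case against Ctrl only, on the 5 numbers both groups share, and it left 0 of the 10 genes and 8 pathway genes. The same mice without the block gave 1 and 16. The numbers did not pair the mice, since deviations of same-numbered mice from their group means correlated at -0.0758 to -0.0479 and no mouse correlated best with its own number.

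Small changes turned in sign, and none of these had passed the test. With the term for the 7 libraries, and with that for 8, the log2 fold change between Dapa and Case was -0.68 for Lepr and 0.0395 for Igf1r. Without the libraries with Adipoq it was -0.25 for Lepr. With limma on log2(FPKM + 1) and log2(FPKM + 0.1) it was 0.0171 and 0.0179 for Leprot, and 0.0482 and 0.0509 for Insr between Dapa and Ctrl. When 1 mouse was left out, the change between Dapa and Case ran from -0.25 to 0.37 for Lepr, from -0.0616 to 0.0324 for Leprot, from -0.11 to 0.0392 for Igf1r and from -0.18 to 0.35 for Igfbp1. Insr ran from -0.0291 to 0.10 between Case and Ctrl, and Foxo1 from -0.0142 to 0.11 between Dapa and Ctrl. The cause was not tested.

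Over all genes, edgeR called 888 higher and 1007 lower between Case and Ctrl, and limma on log2(FPKM + 1) 1044 and 723. Between Dapa and Ctrl these were 2073 and 2187, and 2918 and 1488. The 1895 calls of the former were 751 with the term for 8 libraries, 1219 with that for 7 and 699 with the block, and between Dapa and Case, where edgeR called 0 genes, DESeq2 called 202 and the joint fit of the 3 groups 5. Depth limits genes with few counts, among them Lep (0 in 13 mice) and Igf1 (42 to 218 counts).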

Other observations

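Of the pathway genes not yet named, 3 were chosen after their values were seen. Fbxo32, which encodes the ubiquitin ligase atrogin-1, rose by 0.66 ± 0.18 on the log2 scale in Case (edgeR q = 0.0295) and by 0.86 ± 0.21 in Dapa (q = 0.00854) relative to Ctrl. Sesn1, which encodes a stress-induced inhibitor of mTORC1 signalling, rose by 0.45 ± 0.12 (q = 0.0266) and 0.65 ± 0.14 (q = 0.00518). For both, all 12 db/db mice lay above all Ctrl mice in FPKM, without TMM scaling. Igf2r, which encodes the receptor that clears IGF-2, fell by 0.57 ± 0.16 (q = 0.0318) in Case, where 5 of 6 mice lay below all Ctrl mice, and by 0.67 ± 0.10 (q = 0.000677) in Dapa, where 6 of 6 did. The calls in Case were lost without Ctrl 2, 3 or 5 for all 3 genes (q = 0.0552 to 0.0875), and also without Case 4 for Fbxo32 (q = 0.0574), Case 1 for Sesn1 (q = 0.0546), and Ctrl 1, Case 2 or Case 6 for Igf2r (q = 0.0663, 0.0571 and 0.0563). The calls in Dapa were kept when any 1 mouse was left out, and that of Fbxo32 was lost without the 4 libraries with Adipoq (log2 fold change 0.71, q = 0.0971). These comparisons share the Ctrl mice.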
